A study of Mus musculus with 71 samples.

Results

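Dcn, Lum, Fmod, Ogn, Bgn, Prelp, Omd and Aspn encode small leucine-rich proteoglycans of the extracellular matrix. They were taken as the genes whose annotated symbol is one of these names, which gave 8 of the 18193 genes with a probe set of 1 symbol on the array. A gene is represented by the probe set with the highest mean over all arrays. The series holds 71 oligonucleotide arrays of mouse brain RNA in 20 groups, from mice lacking GLP (Ehmt1) or G9a (Ehmt2), the paired enzymes that add methyl groups to lysine 9 of histone H3. The GLP mutants were Camk2a-Cre; GLPfl/fl mice and the G9a mutants Camk2a-Cre; G9afl/fl mice, in which the Camk2a promoter drives Cre in forebrain neurons, and their controls were GLPfl/fl or G9afl/fl littermates matched for age and sex. Mutants and controls of each line therefore both carried the floxed allele, and deletion was directed to those neurons. Which cells made the member RNAs was not tested. Total RNA came from hippocampus, hypothalamus, striatum and cortex, with 4 arrays a group except for 3 G9a hippocampus controls, 2 G9a cortex mutants and 2 G9a cortex controls. A second set held polyribosome-bound mRNA from striatal medium spiny neurons, with 3 arrays a group and 5 mice pooled on each array. The mutant pools were Drd1-Cre; Drd1-bacTRAP; G9afl/fl and Drd2-Cre; Drd2-bacTRAP; G9afl/fl, and their controls, which lacked the Cre driver, were Drd1-bacTRAP; G9afl/fl for Drd1 and Drd2-bacTRAP; G9afl/fl for Drd2. Mice were 10 to 14 weeks old.

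Small leucine-rich proteoglycans are secreted proteins built on a horseshoe of leucine-rich repeats, many of which carry glycosaminoglycan chains and bind collagen fibrils or growth factors of the TGF-beta family. In the brain, fibroblasts of the meninges and around vessels are a known source of several of them. Decorin (Dcn), biglycan (Bgn) and asporin (Aspn) form class I. Decorin regulates the diameter of collagen fibrils and binds TGF-beta, biglycan also acts as a signal of tissue damage, and asporin carries a run of aspartates and binds TGF-beta. Class II holds the collagen-binding lumican (Lum) and fibromodulin (Fmod), which carry keratan sulfate, the proline and arginine rich Prelp, and osteomodulin (Omd), known from bone. Osteoglycin (Ogn), or mimecan, belongs to class III.

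On the RefSeq annotation of mouse build GRCm38.p6, 7 of the 8 genes lie in 3 clusters. Prelp (chr1:133910304-133930102) and Fmod (chr1:134037254-134048280) span 138 kb of chromosome 1, and Dcn (chr10:97479500-97518163) and Lum (chr10:97565501-97572703) span 93 kb of chromosome 10. Aspn (chr13:49544443-49567565), Omd (chr13:49582462-49592612) and Ogn (chr13:49608015-49624501) span 80 kb of chromosome 13, and Bgn lies alone on the X chromosome (chrX:73483601-73495936). Promoter sequences from 250 bases before to 50 bases after a transcript start in the RefSeq table were matched for 6 genes: Fmod, Ogn, Bgn, Prelp, Omd and Aspn. For Prelp that start lies within the gene's span and not at its outer end. Those of the neighbours Fmod and Prelp, and of Bgn, are shown because Fmod holds the larger mutant call, Prelp is its neighbour and Bgn lies outside the clusters. They are printed 5′ to 3′ on the strand of the gene: the plus strand at chr1:134037004-134037303 for Fmod, the minus strand at chr1:133921352-133921651 for Prelp and the plus strand at chrX:73483351-73483650 for Bgn, with matches to GGGCGG on either strand in capitals.
Fmod: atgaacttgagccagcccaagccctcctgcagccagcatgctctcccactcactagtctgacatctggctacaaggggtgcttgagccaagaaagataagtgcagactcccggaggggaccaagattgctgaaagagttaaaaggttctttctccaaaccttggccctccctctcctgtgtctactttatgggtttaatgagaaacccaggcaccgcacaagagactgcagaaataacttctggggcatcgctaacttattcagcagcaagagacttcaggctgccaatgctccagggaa
Prelp: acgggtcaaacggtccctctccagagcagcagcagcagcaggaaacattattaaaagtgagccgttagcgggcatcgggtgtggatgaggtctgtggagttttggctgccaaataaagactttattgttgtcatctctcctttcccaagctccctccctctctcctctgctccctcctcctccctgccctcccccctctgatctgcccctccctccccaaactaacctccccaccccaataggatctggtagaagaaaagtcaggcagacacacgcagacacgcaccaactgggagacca
Bgn: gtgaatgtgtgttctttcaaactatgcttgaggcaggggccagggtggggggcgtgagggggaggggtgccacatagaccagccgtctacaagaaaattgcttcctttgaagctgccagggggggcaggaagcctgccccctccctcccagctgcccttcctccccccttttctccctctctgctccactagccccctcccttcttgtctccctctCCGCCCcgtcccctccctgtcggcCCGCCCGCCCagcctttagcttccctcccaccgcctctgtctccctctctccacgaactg
The Bgn promoter held 3 matches to GGGCGG, at 34, 10 and 6 bases before the start, of which the last 2 overlap, whereas the other 2 windows held none. GGGCGG was present in 35.7% of all 32851 promoters in the table. TATAAA, searched on both strands, was in none of the 3 windows and in 13.6% of all promoters. CG dinucleotides numbered 3 in the Fmod window, 7 in the Prelp window and 9 in the Bgn window, against a median of 7 over all promoters.

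The deposited values are intensities scaled so that the median of each array is 1, and all levels below are their log2, on which 0 is the array median. Levels are compared only within a probe set. Differences were tested with limma and Benjamini-Hochberg adjustment over all genes tested, with an adjusted p of 0.05 as threshold, where a gene was tested if it exceeded the array median in as many arrays as the smaller group holds. The labels call the replicates biological, and the number of arrays limits the precision. Ehmt1 fell to between 58.9% and 72.6% of its control mean in GLP mutant hippocampus, striatum and cortex, and stood at 89.8% in hypothalamus, where it did not pass the test (adjusted p = 0.711). Ehmt2 fell to between 29.5% and 49.2% of control in all 4 regions of the G9a mutants. In the pools Ehmt2 stood at 24.3% of control for Drd1 and 94.5% for Drd2. It passed the test in neither, so both sets of mutant pools are called by their label only. Ehmt2 measured 5.01, 1.56 and 4.93 in Drd1 mutant pools, against 6.22, 5.93 and 5.49 in controls, so array 2 lowers that mean most. Ehmt1 was also low on array 2, at 1.53 against 3.49 and 3.44 on the other Drd1 mutant arrays. Array 2 of the Drd1 mutant pools had a mean correlation of 0.900 with the other arrays of its group, against 0.943 to 0.997 for all other arrays. Marker genes of each region separated its arrays from those of the other 3 regions.

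Dcn and Lum, neighbours on chromosome 10, were higher in control hippocampus than in the other regions. Dcn measured 5.11, 4.59, 5.28 and 4.65 in GLP control hippocampus and 4.84, 4.52 and 4.91 in G9a control hippocampus. Next came GLP control hypothalamus at 4.04, 4.09, 3.90 and 4.21, below every hippocampus array, and then G9a control hypothalamus at 2.76, 2.97, 1.92 and 2.95. In control striatum and cortex Dcn lay between 0.93 and 2.41, and these 4 groups overlapped each other and the G9a hypothalamus. Over both lines Dcn was higher in hippocampus than in the mean of the other 3 regions by 2.46 (SE 0.15, adjusted p = 7.99e-20). Fewer cells of a type and less RNA per cell cannot be told apart in these tissue samples. Lum measured 1.38, 1.38, 1.52 and 1.49 in GLP control hippocampus and 0.70, -0.39 and 0.43 in G9a control hippocampus. It measured 0.73, 0.86, 0.17 and 0.59 in GLP control hypothalamus, and lay below the array median on every control array of G9a hypothalamus, of striatum and of cortex. The hippocampus excess of Lum was 2.08 (SE 0.19, adjusted p = 7.59e-14), and 0.81 with all values under the median raised to it. For Dcn, averaging its 2 probe sets gave 1.16, still called.

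Among all genes, 61.8% were called between control hippocampus and the other regions, 38.1% as higher and 23.7% as lower. Higher there were 5 of the members tested, with Ogn at 1.24 (SE 0.26, adjusted p = 4.72e-05), Prelp at 1.20 (SE 0.13, adjusted p = 5.77e-11) and Bgn at 0.94 (SE 0.17, adjusted p = 5.19e-06) beside Dcn and Lum. Fmod did not pass (0.34, adjusted p = 0.31). The median member difference was 1.07, against 0.075 over all genes. Of the 25 genes of a list of meningeal fibroblast markers that holds no member, 21 were tested, with 12 higher and 2 lower in control hippocampus. The part of meningeal tissue in the members' regional levels was not tested.

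Fmod had its highest control levels in cortex. It measured 2.76, 4.21, 3.53 and 3.27 in GLP control cortex and 2.90 and 4.05 in G9a control cortex, overlapping GLP control hippocampus at 3.27, 3.39, 3.41 and 3.25. Hypothalamus followed at 1.08 to 2.56 over both lines. Below it, overlapping ranges were seen in G9a control hippocampus at 0.80, 1.40 and 2.26 and in striatum at 0.45 to 1.67. The cortex excess over the mean of the other regions was 1.74 (SE 0.31, adjusted p = 3.88e-06), in a comparison that called 67.6% of all genes, 26.4% as higher and 41.2% as lower. Dcn (-1.39, SE 0.16, adjusted p = 3.1e-10) and Lum (-1.02, SE 0.20) were lower in control cortex. Every Lum value there was under the array median, and raising such values to it left -0.40, still called. All control cortex values of Lum were then 0, so the -0.40 holds only Lum levels in hippocampus and GLP hypothalamus. The Dcn call rests on the brighter of its 2 probe sets, since averaging both gave -0.11 and lost it. Ogn (-0.73, adjusted p = 0.0207) and Prelp (-0.43, adjusted p = 0.00903) were lower too, and each call was lost without G9a cortex control 1, that of Ogn also without GLP cortex control 1.

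For the other 3 genes called higher in hippocampus, GLP control hypothalamus stood at the low end for Prelp and Bgn and at the high end for Ogn. Prelp measured 3.15, 3.24, 2.93 and 3.07 in GLP control hippocampus and 3.01, 2.79 and 2.87 in G9a control hippocampus, which overlap. G9a control hypothalamus followed at 2.87, 2.51, 2.21 and 2.54, while GLP control hypothalamus, at 0.70, 0.30, 1.00 and 1.20, lay under every other control tissue group. Striatum and cortex of both lines overlapped each other at 1.30 to 2.86. Bgn measured 2.49, 2.45, 2.51 and 2.63 in GLP control hippocampus and 1.95, 2.34 and 2.36 in G9a control hippocampus. It was lowest in GLP control hypothalamus, at 0.45, -0.84, 0.47 and 0.61, and the remaining 5 control tissue groups lay between 1.16 and 2.57. Ogn measured 3.67, 3.80, 3.42 and 3.10 in GLP control hippocampus, overlapping GLP control hypothalamus at 4.51, 3.59, 3.25 and 2.64. It measured 2.03, 1.96 and 2.48 in G9a control hippocampus, and 0.55, 1.01, 0.45 and 1.57 in G9a control hypothalamus, under every GLP hypothalamus array. In control striatum and cortex Ogn lay between -0.24 and 2.55.

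In control striatum no member was higher than elsewhere, in a comparison that called 64% of all genes, 35.1% as higher and 28.9% as lower. Lum (-1.70), Dcn (-1.56, SE 0.14), Fmod (-1.51, SE 0.27) and Ogn (-0.92, SE 0.25, adjusted p = 0.0011) were lower, with a median over the members of -0.88 against 0.029 over all genes. Lum was under the array median on every control striatum array, and raising such values to it left -0.40, still called. The value equals that of cortex, since Lum in both regions then stands at 0. It holds only Lum levels in hippocampus and GLP hypothalamus. Omd and Aspn were also called lower in striatum, and Omd higher in cortex (1.03, SE 0.20, adjusted p = 1.01e-05). Both genes read near or under the array median. With values under the median raised to it, their differences became -0.02, -0.05 and 0.04, and these 3 calls were lost. Omd exceeded the median on 3 of all 71 arrays and Aspn on 22.

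The hypothalamus comparison called 75.5% of all genes, 36% as higher and 39.6% as lower. Dcn (0.49, SE 0.14, adjusted p = 0.00202) and Lum (0.64, SE 0.18, adjusted p = 0.00132) were higher, while Bgn (-1.06, SE 0.16, adjusted p = 1.08e-07) and Prelp (-0.56, SE 0.13, adjusted p = 9.63e-05) were lower. Averaging both Dcn probe sets, or raising Lum values under the median to it, turned either difference to -0.01. Values also depended on the control line. With GLP controls alone, 7 of 7 members tested were called in hypothalamus, where 75.5% of all genes were. Dcn (1.12), Lum (1.16), Ogn (1.48) and Aspn (0.60) were higher, and Fmod (-0.82), Bgn (-1.66) and Prelp (-1.35) were lower. With G9a controls alone, 0 of 6 members were called in limma's test, where 60.7% of all genes were, and the differences were -0.14 for Dcn, 0.11 for Lum, -0.67 for Ogn, -0.45 for Bgn and 0.22 for Prelp. Summed levels of the meningeal markers overlapped between the hypothalamus controls of the lines, at 66.6 to 86.4 times the array median in GLP and 62.6 to 84.4 in G9a. By mean log2 level, astrocyte, oligodendrocyte and microglia markers overlapped as well, while the lists that follow did not. By summed level, endothelial and mural markers (198 to 243 in GLP, 171 to 200 in G9a) overlapped. So did hypothalamus markers (401 to 589 in GLP, 472 to 559 in G9a). Mean log2 levels in GLP and G9a hypothalamus controls were 1.605 to 1.85 and 2.03 to 2.20 for endothelial and mural markers, and 2.04 to 2.69 and 2.91 to 3.40 for hypothalamus markers. They were -0.51 to -0.19 and 0.52 to 0.68 for hippocampus markers, 2.11 to 2.38 and 2.91 to 3.24 for striatum markers, and 2.43 to 2.76 and 2.86 to 3.11 for cortex markers. Choroid plexus markers summed to 28.6 to 609 in GLP and 24.2 to 27.2 in G9a. The part of these markers in the members' values was not tested. Fmod in hippocampus also turned, at 1.26 (SE 0.38) over the other regions in GLP controls and -0.58 (SE 0.44) in G9a controls, as did Ogn in cortex, at -1.92 (SE 0.34) and 0.46 (SE 0.45). The difference between lines was itself not tested. Dcn in hippocampus held in both, at 2.25 in GLP controls and 2.67 in G9a controls.

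**Figure D1:**
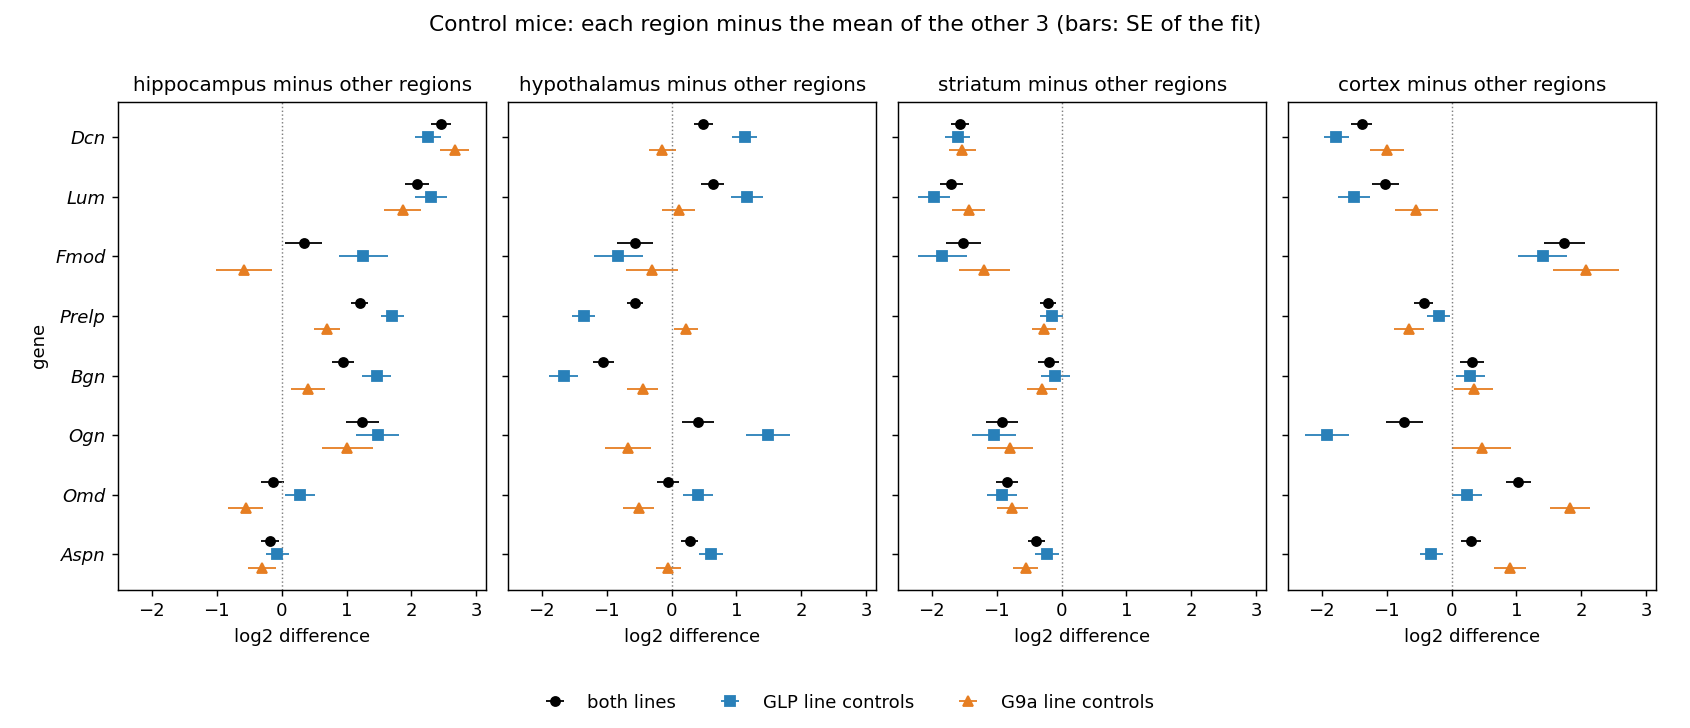
Differences in log2 level between each control region and the mean of the other 3, per member, with standard errors, for both lines together and for each line alone. Dcn and Lum lie above 0 in hippocampus in every setting. The hypothalamus differences of Dcn, Ogn and Prelp, and of the dim Omd and Aspn, lie on opposite sides of 0 in the 2 lines.

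Across the 16 tissue group means, the closest gene to Dcn among 12730 genes was its neighbour Lum, with Pearson's r = 0.957, followed by Acot2 (0.951) and Pkp2 (0.950). Lum was closest to Dcn, then Pf4 (0.932) and Tnip2 (0.925). Fmod was closest to Islr (0.921), Syne2 (0.918) and the smooth muscle myosin Myh11 (0.914), and its r with its neighbour Prelp was 0.220. Bgn was closest to Nsf (0.944), Prelp to Ccnd3 (0.937), Ogn to Rreb1 (0.890), Omd to Gabrb2 (0.940) and Aspn to Trim34a (0.956). Within the chromosome 13 cluster r was 0.836 for Omd and Aspn, 0.688 for Ogn and Aspn and 0.581 for Ogn and Omd. Bgn and Prelp, on different chromosomes, reached 0.836, and Lum and Ogn 0.831. Omd exceeded the array median on 3 of all 71 arrays, and Aspn and Lum on 22 each. Group means near or under the median therefore enter the r values of these genes. The points share 4 regions, 2 lines and the array scaling, and the values describe likeness only.

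**Figure D2:**
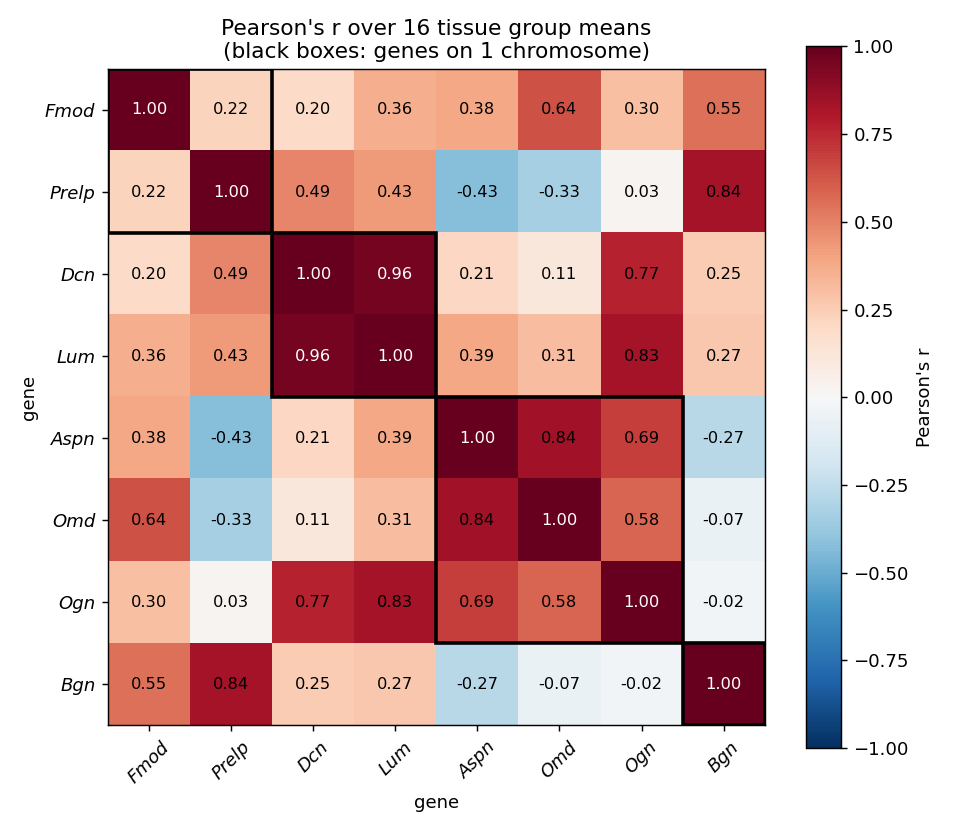
Pearson's r between members over the 16 tissue group means of log2 level. Dcn and Lum form the closest pair at 0.957, and Fmod has 0.220 with Prelp, its neighbour on chromosome 1.

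Loss of G9a in hippocampus gave both member calls among the tissue comparisons. Fmod measured 2.33, 3.03, 2.99 and 4.73 in G9a mutant hippocampus, against 0.80, 1.40 and 2.26 in the controls. Every mutant array was above every control array, as in 7.82% of all genes, and Fmod rose by 1.78 (SE 0.50, adjusted p = 0.0343), a 3.44-fold difference. All 6 Fmod probe sets were higher in the mutants, by 0.97 to 1.78, though the probe sets share the same arrays. Lum measured 1.04, 1.84, 0.63 and 1.90 in the mutants, against 0.70, -0.39 and 0.43 in the controls. Mutant array 3 lay under the highest control, so the groups overlapped, and Lum rose by 1.11 (SE 0.32, adjusted p = 0.0475), a 2.16-fold difference. The test called 2.72% of all genes in this comparison, 2.25% as higher. The other members tested did not pass, with Bgn at 0.48 (adjusted p = 0.575), Dcn at 0.18, Prelp at 0.06 and Ogn at -0.16. The median over the members tested was 0.33, against 0.030 over all genes.

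Both calls lay close to the threshold. Fmod was lost with the compared groups fitted alone (adjusted p = 0.118), with quantile normalization (adjusted p = 0.0704) and with robust fitting (adjusted p = 0.0511). It was also lost without G9a hippocampus mutant 2 (1.86, adjusted p = 0.0546) or 4 (1.30, adjusted p = 0.264), or without control 1 (1.44, adjusted p = 0.219) or 2 (1.74, adjusted p = 0.145). Lum was lost with the compared groups fitted alone (adjusted p = 0.176), with quantile normalization (adjusted p = 0.0904), without mutant 2 (adjusted p = 0.196) or 4 (adjusted p = 0.231), and without control 2 (0.79, adjusted p = 0.449) or 3 (adjusted p = 0.0621). GLP control hippocampus, at 3.25 to 3.41 for Fmod, lay within the range of the G9a mutants and above all 3 G9a controls.

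The meningeal marker list moved with Fmod across the G9a hippocampus arrays. Its mean log2 level was 0.90, 1.15, 1.34 and 1.98 in the mutants, against 0.59, 0.85 and 0.90 in the controls, and its summed level 98.2 to 191 against 89.3 to 101 times the array median. Of its 25 genes 20 were tested, 2 rose and 0 fell, with a median of 0.65 against 0.030 over all genes, while Asgr1, Alx4 and Col1a1 were under the median on every array. Mutant array 4 was the highest in this list, in Fmod and in Lum. Lum did not follow the list over the other arrays. Mutant 3, at 1.34 in the list, had the lowest mutant Lum (0.63), and control 1, at 0.59, the highest control Lum (0.70). The members were set beside the marker mean in the 13 groups of 4 arrays of the whole series. The array highest in the marker mean was also the highest in Fmod, Ogn and Bgn in 8 groups. It was so in Prelp and Omd in 7, and in Dcn, Lum and Aspn in 4. The array lowest in the marker mean was also the lowest in Fmod, Ogn and Bgn in 8 groups. It was so in Dcn in 7, in Prelp in 6, in Omd in 5, in Lum in 4 and in Aspn in 3. With only 4 arrays a group such matches also arise by chance, and their share over all genes was not counted. The part of meningeal tissue in either call was not tested. Choroid plexus markers summed to 153 to 535 in the mutants, against 87.4 to 199.9 in the controls, and array 4 was the lowest of the mutants in them. Endothelial and mural markers had mean log2 levels of 2.22, 2.51, 2.70 and 2.83 in the mutants, against 2.19, 2.29 and 2.40 in the controls, with 0 of 13 tested called. Array 4 was the highest there too, and the part of these markers was not tested.

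**Figure D3:**
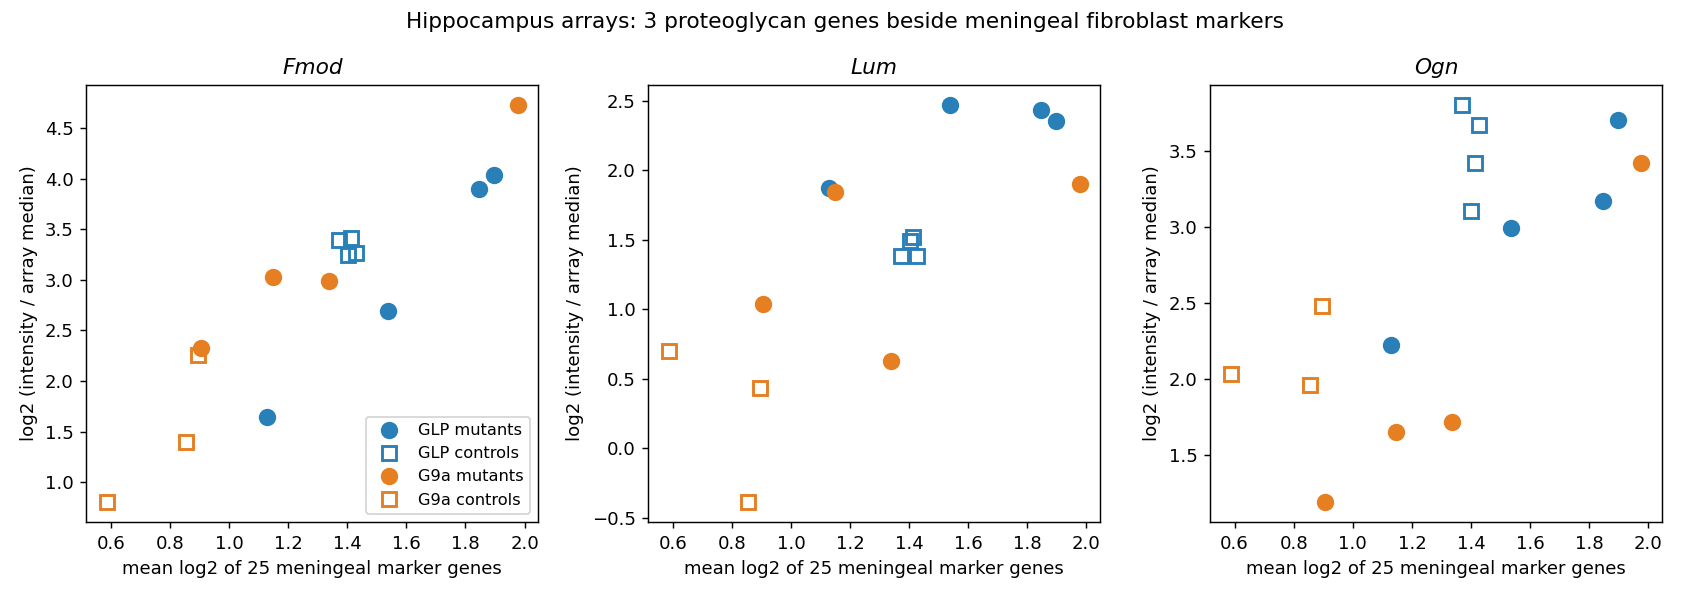
Log2 levels of Fmod, Lum and Ogn on each hippocampus array against the mean log2 level of the meningeal fibroblast markers, mutants beside controls for both lines. The G9a mutant array with the highest marker mean (1.98) also has the highest Fmod (4.73) and Lum (1.90). Lum does not follow the markers over the other arrays, as G9a mutant 3, at a marker mean of 1.34, has the lowest mutant Lum (0.63).

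In GLP mutant hippocampus 0 of the members tested were called by limma, and 2.05% of all genes were. Lum measured 2.35, 1.87, 2.47 and 2.43 in GLP mutant hippocampus, against 1.38, 1.38, 1.52 and 1.49 in the controls. Prelp measured 3.67, 3.46, 3.56 and 3.57 in the mutants, against 3.15, 3.24, 2.93 and 3.07 in the controls. In both genes each mutant array was above each control array, as were 3.96% of all genes tested. The Lum difference was 0.84 (SE 0.30, adjusted p = 0.214), 1.79-fold, and the Prelp difference 0.47 (SE 0.21, adjusted p = 0.549), 1.38-fold. With the compared groups fitted alone, which uses only their own spread, the adjusted p was 0.00542 for Lum and 0.0158 for Prelp, and with array weights 0.0266 and 0.0278. Lum was also called with values under the median raised to it (adjusted p = 0.000832) and with a pseudocount of 1 (adjusted p = 0.000513). All Lum values of both groups were over the median, so raising left the difference at 0.84. That step sets groups wholly under the median to 0, which narrows the pooled spread behind the p-value. A pseudocount compresses low values likewise. The dimmer Prelp probe set, tested as a probe set of its own, was higher by 0.57 (adjusted p = 0.0424). Fmod, called in the G9a line, measured 4.04, 1.64, 2.69 and 3.90 in GLP mutants, against 3.27, 3.39, 3.41 and 3.25 in controls. The mutants lay on both sides of the controls, with a difference of -0.26. Meningeal markers summed to 176 to 237 in GLP mutant hippocampus, against 134 to 148 in the controls, with 1 of 19 tested called. Their mean log2 levels, at 1.90, 1.13, 1.54 and 1.85, lay on both sides of the controls at 1.43, 1.37, 1.41 and 1.40, with mutant 2 under every control. Choroid plexus markers summed to 1147 to 1344, against 328 to 1035, with 14 of 15 tested called higher. Their part in the Lum and Prelp differences was not tested.

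**Figure D4:**
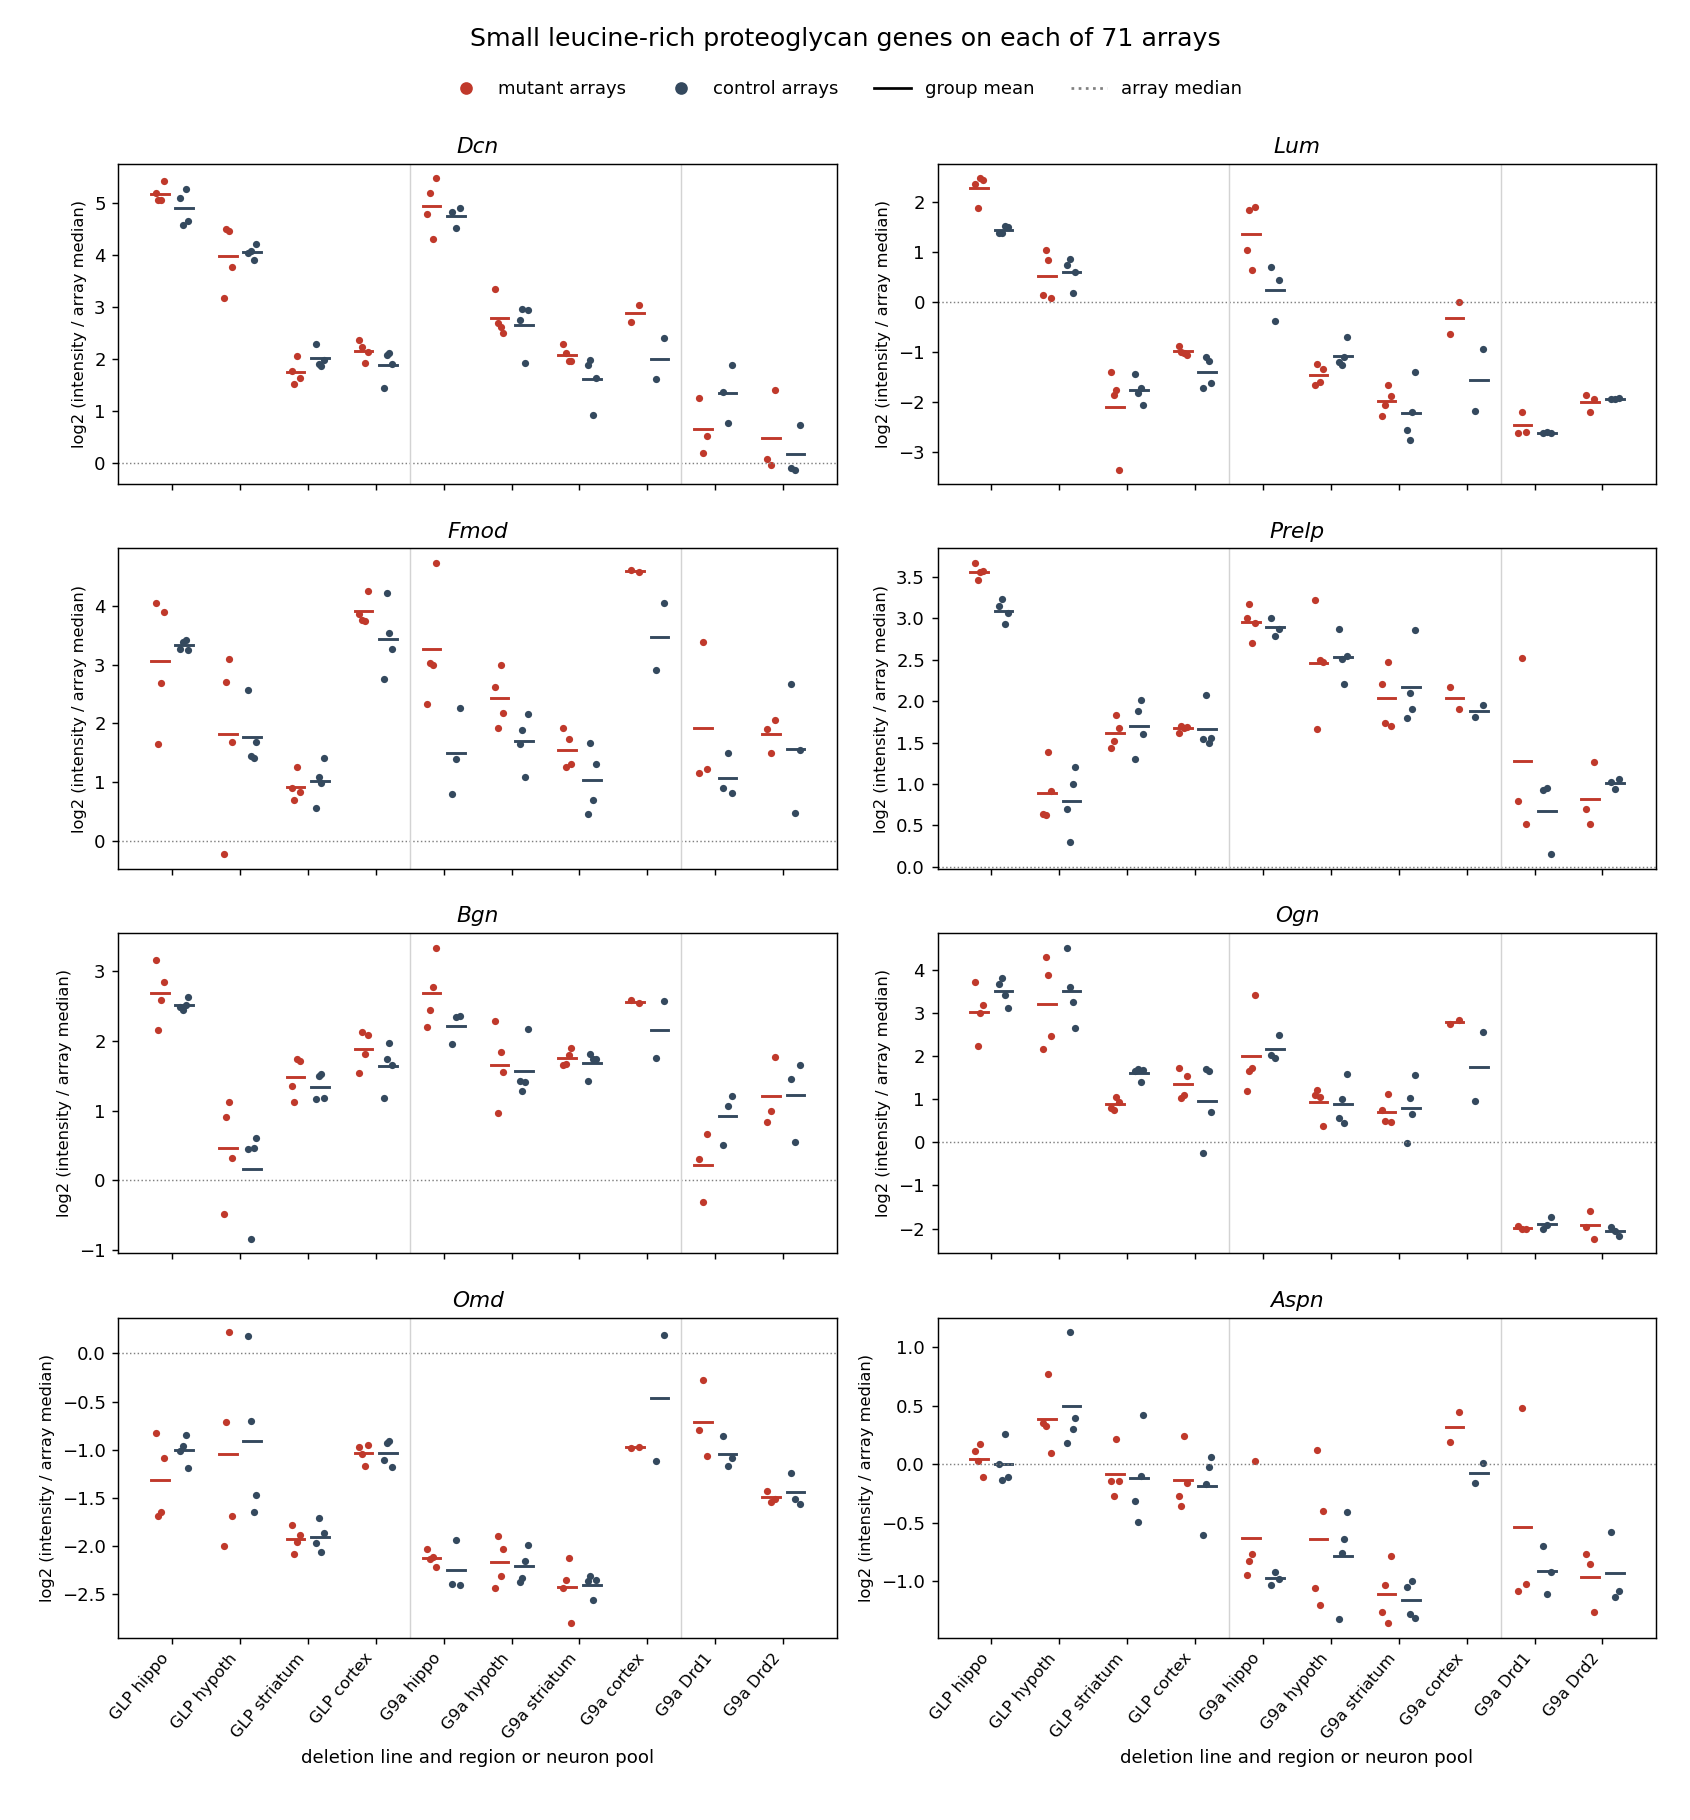
Log2 level of the members on each array by group, mutants left of their controls, where 0 is the array median. Within each line the control means of Dcn and Lum are highest in hippocampus, and Omd lies under 0 on nearly all arrays.

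Across all 8 tissue comparisons the members gave 64 differences, of which 46 were tested, 2 were called and 5 had an unadjusted p under 0.05. No member was called in GLP hypothalamus, striatum or cortex, where 1.01%, 1.67% and 1.54% of all genes were. None was called in G9a hypothalamus, striatum or cortex, with 2.34%, 3.02% and 0.728% of all genes. Bgn was higher in the mutants in 8 of 8 comparisons, by 0.07 to 0.48, without passing the test in any. Fmod and Dcn were higher in 6, Lum and Prelp in 5, Ogn in 3, Aspn in 7 and Omd in 2. The share of all genes higher in every comparison was not counted. In G9a striatum 2 of the 3 Bgn probe sets were higher, and the other stood at -0.03. In the neuron pools Bgn differed by -0.71 for Drd1 and -0.01 for Drd2.

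The G9a cortex, with 2 arrays a group, held differences that did not pass the test. Dcn measured 2.72 and 3.04 in G9a mutant cortex, against 1.61 and 2.41 in the controls. Fmod measured 4.61 and 4.58 in the mutants, against 2.90 and 4.05, and Ogn 2.74 and 2.83, against 0.95 and 2.55. The mutants were above the controls in Dcn (0.87, SE 0.34, 1.83-fold), Fmod (1.12, 2.18-fold), Ogn (1.04, 2.05-fold) and Aspn (0.39, at least 1.25-fold against the array median). Such separation upward held for 18.4% of all genes in this comparison, and the lowest adjusted p, that of Dcn, was 0.879. Dcn was called with array weights (adjusted p = 0.0104), and measured 0.47 without control 1 and 1.27 without control 2. Meningeal markers summed to 126 to 128 in the mutants, against 87.8 to 114 in the controls. Endothelial and mural markers summed to 221 and 242, against 194 and 205, and choroid plexus markers to 72.9 and 605, against 141 and 37.2. The part of these markers was not tested.

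Ogn in GLP mutant striatum measured 0.79, 0.74, 1.05 and 0.93, against 1.65, 1.70, 1.40 and 1.68 in the controls. All mutants lay under all controls, as in 3.06% of all genes, with a difference of -0.73 (SE 0.41, adjusted p = 0.587). It was called with the compared groups fitted alone (adjusted p = 0.0170), and the mean of both probe sets gave -0.39, as the dimmer one stood at -0.06. Meningeal markers there summed to 55.7 to 61.6 in the mutants, against 62.1 to 70.8 in the controls. Their mean log2 levels overlapped, at 0.20 to 0.36 in the mutants and 0.26 to 0.46 in the controls. The part of these markers in the Ogn difference was not tested. In GLP mutant hippocampus Ogn measured 3.70, 2.22, 2.99 and 3.17, against 3.67, 3.80, 3.42 and 3.10 in the controls, overlapping at a difference of -0.47. Dcn in G9a striatum measured 2.30, 2.11, 1.97 and 1.97 in mutants, against 1.89, 1.98, 0.93 and 1.64 in controls, with 1 control array within the mutant range and a difference of 0.48 (adjusted p = 0.407). Fmod in G9a hypothalamus measured 2.62, 1.92, 3.00 and 2.17 in mutants, against 1.64, 1.89, 1.08 and 2.16 in controls, overlapping at a difference of 0.74 (adjusted p = 0.445). With array weights that difference was 1.39 (adjusted p = 0.0341).

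**Figure D5:**
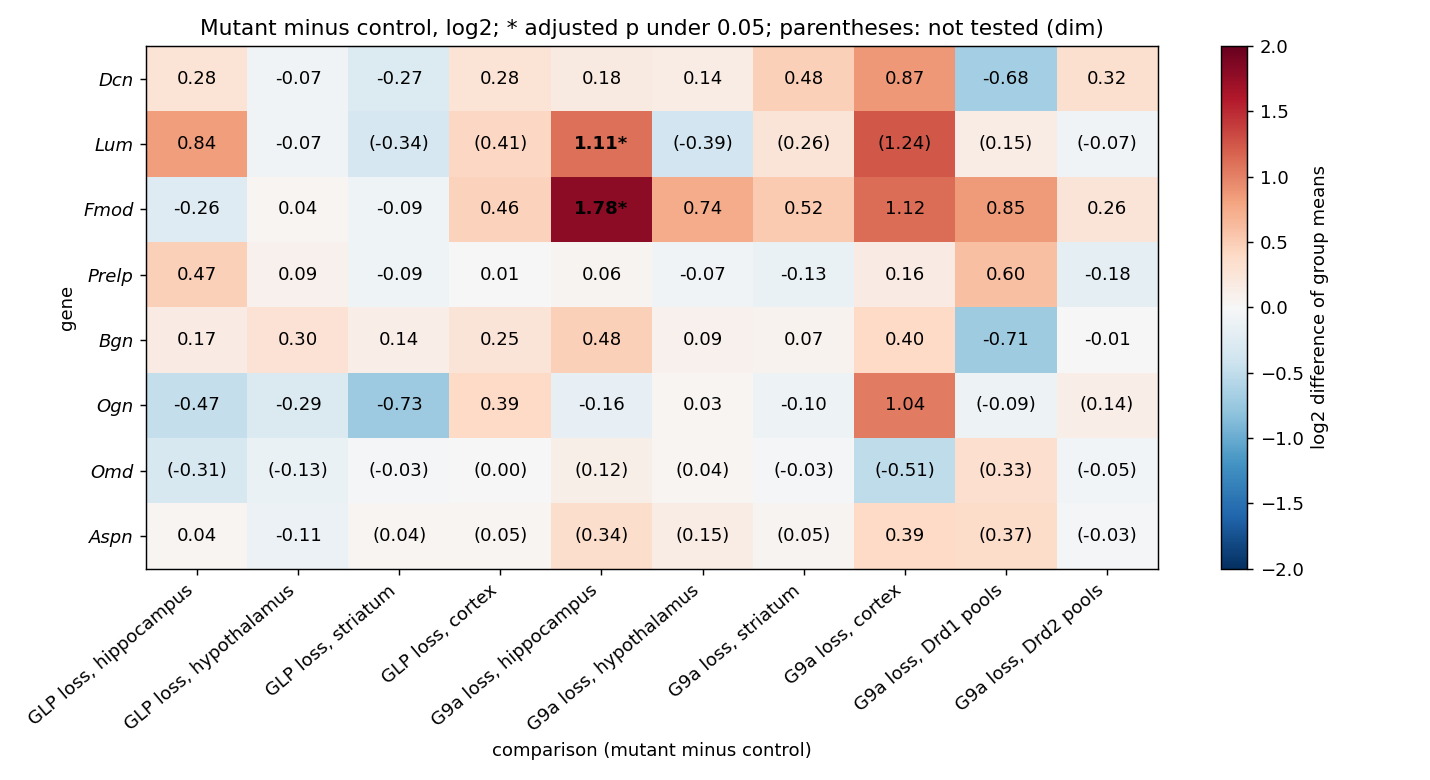
Mutant minus control difference in log2 level per member (down) and comparison (across), as colour and number, with an asterisk on calls and parentheses where the gene was too dim to be tested. Fmod and Lum in G9a hippocampus, at 1.78 and 1.11, carry the asterisks.

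Whether the effects of GLP and G9a loss differ was tested as GLP minus G9a change in each region. None of 25 member values passed in limma's test, with 2 at an unadjusted p under 0.05, where 0.157%, 0.00831%, 0.00842% and 0.0168% of all genes were called in hippocampus, hypothalamus, striatum and cortex. The Fmod changes of -0.26 in GLP and 1.78 in G9a hippocampus differed by -2.05 (SE 0.68, adjusted p = 0.452). Dcn in striatum differed by -0.74 (SE 0.34, adjusted p = 0.755). Tests for unequal change across the 4 regions called 0 of 14 member values, and 1.08% of all genes for GLP and 1.37% for G9a. The lowest there were Lum in G9a (unadjusted p = 0.00315, adjusted p = 0.144) and in GLP (unadjusted p = 0.0391, adjusted p = 0.675).

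Genes that act with these proteoglycans were taken as lists, which were chosen with earlier results of these data known. Of collagens and collagen-processing enzymes, 3 of 12 tested rose in G9a mutant hippocampus: the fibril-associated Col12a1 (1.31, adjusted p = 0.000666, 2.48-fold), the type I chain Col1a2 (1.18, adjusted p = 0.0223, 2.27-fold) and the type V chain Col5a2 (0.83, adjusted p = 0.0355, 1.77-fold). All genes were called at 2.72% there, and the list median was 0.52, against 0.030 over all genes. In GLP mutant hippocampus, with 2.05% of all genes called, 2 of 13 rose, the procollagen C-proteinase enhancers Pcolce (1.15, adjusted p = 0.029, 2.23-fold) and Pcolce2 (1.07, adjusted p = 0.000425, 2.09-fold). In GLP mutant hypothalamus the type VI chains Col6a3 (1.57, adjusted p = 0.000563, 2.98-fold) and Col6a2 (0.82, at least 1.75-fold) rose, 2 of 11 tested, where 1.01% of all genes were called. In G9a mutant hypothalamus the procollagen protease Bmp1 rose (0.60, adjusted p = 0.0261, 1.51-fold), 1 of 11 tested, where 2.34% of all genes were called. The meningeal marker values given for the hippocampus stand beside these changes, but that list also holds Col1a1, Col1a2 and Col3a1, so the lists share genes.

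Among the other genes of the leucine-rich family, Ecm2 rose in GLP mutant hippocampus (1.34, SE 0.22, adjusted p = 2.26e-05, at least 1.29-fold), 1 of 3 tested, where 2.05% of all genes were called. Its mean was under the array median in the controls (-0.97), so that it passed the filter through the mutants. Of other matrix proteoglycans and link proteins, Hapln4, a link protein of perineuronal nets, fell in GLP (-0.94, adjusted p = 4.43e-05) and G9a (-0.86) mutant hippocampus, and Hapln1 fell in GLP mutant hypothalamus (-0.68), each 1 of 19 tested, where 2.05%, 2.72% and 1.01% of all genes were called. In the TGF-beta list, the ligand Bmp2 fell in GLP striatum (-0.998), 1 of 15 tested beside 1.67% of all genes called. In G9a hypothalamus Bmp2 (-0.69) and the receptor Bmpr1a (-0.40) fell, 2 of 16 tested beside 2.34% of all genes. In G9a striatum Bmp2 (-0.83) and the receptor Tgfbr1 (-0.33) fell, 2 of 16 tested beside 3.02% of all genes. Glycosaminoglycan synthesis enzymes, 24 of which were measured and 17 to 21 tested per comparison, had 0 calls in any of the 10 mutant comparisons by limma.

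In the polyribosome pools, 8 of 16 member values were tested for G9a loss. None was called, with a lowest adjusted p of 0.943, and none had an unadjusted p under 0.05. The test called 0.0249% of all genes in Drd1 pools and 0.0165% in Drd2 pools. Fmod measured 1.15, 3.38 and 1.22 in Drd1 mutant pools, against 0.90, 1.49 and 0.82 in Drd1 control pools, and Prelp 0.79, 2.52 and 0.51, against 0.93, 0.95 and 0.15. Mutant pool 2, the array that stands apart in correlation and in Ehmt2, was the highest in both genes. The change in Drd1 minus that in Drd2 pools was tested for 4 members, and 0 of all 12647 genes were called.

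The control pools were set against G9a control striatum, the tissue they came from, in a comparison where preparation and array set cannot be told apart from cell type. All genes shifted upward by a median of 0.63 for Drd1 and 0.60 for Drd2 pools on a scale set by the array median. Ogn, at -2.02, -1.92 and -1.74 in Drd1 control pools, compared with -0.02, 1.02, 0.65 and 1.56 in striatum controls, was lower by at least 1.74-fold against the array median. In Drd2 control pools, at -1.97, -2.05 and -2.18, Ogn was also lower by at least 1.74-fold. Ogn reached the test only through the striatum arrays, and both calls rest on pool values under the median: with these raised to it the differences were -0.81 and were no longer called. Prelp was lower in Drd1 pools (-1.49, SE 0.28, adjusted p = 5.5e-06, 2.81-fold) and in Drd2 pools (-1.16, SE 0.28, adjusted p = 0.000297, 2.23-fold).

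Dcn, the decorin gene, measured -0.09, -0.13 and 0.73 in Drd2 control pools, against 1.89, 1.98, 0.93 and 1.64 in striatum controls, lower at a difference of -1.44 (SE 0.30, adjusted p = 3.38e-05, 2.72-fold). In Drd1 control pools, at 1.37, 0.76 and 1.89, it overlapped the striatum (-0.27), and quantile normalization gave -0.60 (adjusted p = 0.0781). The Drd1 minus Drd2 control difference of 1.17 (SE 0.44, 2.25-fold) did not pass (adjusted p = 0.096), in a comparison that called 15.4% of all genes. With the compared groups fitted alone it was called, close to the threshold (adjusted p = 0.0472). Bgn measured 0.50, 1.06 and 1.21 in Drd1 control pools, against 1.43, 1.81, 1.74 and 1.74 in striatum controls, and was called lower (-0.76, SE 0.31, adjusted p = 0.0264, 1.69-fold), a call lost without striatum control 2 or without Drd1 control 1, and in Drd2 pools differed by -0.46 (adjusted p = 0.185). Quantile normalization, which brought the median of all genes to 0.04 and 0.02, gave -1.07 and -0.80 for Bgn, both called. Fmod, at 0.04 and 0.54, was not called, and its Drd1 value turned to -0.31 under that normalization.

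Of the 5 members tested, Prelp was called lower in both sets of pools, Bgn in Drd1 and Dcn in Drd2, beside the Ogn calls lost with the floor, in comparisons that called 71.9% of all genes for Drd1, 14.1% as lower, and 68.3% for Drd2, 9.22% as lower. With quantile normalization the shares of all genes called lower were 30.4% and 25.9%, and Bgn was added to the members called in Drd2 pools. Meningeal markers were lower for 12 of 16 tested in Drd1 and 10 of 17 in Drd2 pools, with 2 higher in each, and summed to 36.6 to 51.9 and 42.2 to 55.9 times the median, against 58.9 to 132 in striatum. Of endothelial and mural markers, 11 of 12 tested were lower in Drd1 pools, with a median of -3.24, and 0 higher. In Drd2 pools 8 were lower and 0 higher. How far loss of these cell types accounts for the member differences was not tested.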

How the data were processed

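The deposited table holds 1 intensity per probe set for 71 arrays of 45101 probe sets, on a linear scale with every array median at 1. Per the submitters' processing notes the authors made the values with GCRMA, in a version and a grouping of arrays not given in the sources used here. Groups and replicate numbers were taken from the titles. The title's number (4) was kept for 1 G9a hypothalamus control that its source name calls mouse 5. Of the probe sets, 34945 had 1 gene symbol, 932 several and 9160 none, beside 64 control probe sets. A further genotype named in the protocols was not analysed here. No 2 arrays held the same values, with a highest correlation of 0.998.

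The deposited intensities were turned to log2 here and fitted with limma 3.58.1 in R 4.3.3 (lmFit, eBayes with an intensity trend), without a replicate block. The 16 tissue groups formed 1 fit, the 4 pool groups another, and pools against striatum a fit of all 20 groups. Per gene, the probe set of highest mean log2 over the 71 arrays was used. A gene was tested where the number of compared arrays with a log2 over 0 reached the size of the smallest compared group. P-values were adjusted by Benjamini-Hochberg within each comparison, and rest on the spread pooled over all groups of a fit. Whether regions share animals is not stated, and the fits treat all arrays as independent. A fold is written as at least a value where the lower mean was below the array median, which then took its place. The scripts were tested on simulated data. The members and lists were chosen with earlier results of these data known. Genes named beside the members were the called genes of the lists and, per member, the 3 of highest Pearson's r over tissue group means. Lists were described by counts and medians.

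Deviations from group means were correlated between arrays of the same number. Only in the Drd2 pools did every pair exceed 0.1 (3 pairs, 0.166 to 0.458). This is a pattern in the data, since the labels state no pairing. For G9a loss in these pools the block changed no member call. In limma's test of Drd1 against Drd2 control pools it added a call of Dcn (1.17, adjusted p = 0.0391). Alternatives were a floor at the array median, a pseudocount of 1, no filter, a stricter filter (log2 over 2), the compared groups alone, no trend, robust fitting, quantile normalization, the mean of probe sets, array weights, the replicate block, leaving out each array and, added after seeing the data, each control line alone.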

Additional observations from a re-analysis of the deposited data

Results flagged for a closer look

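Within groups of 4 arrays, 1 array stood far from the other 3 in 2 of 104 groups examined (a member in a group), where chance gives about 1 in 20. Bgn measured -0.84 on array 2 of the GLP hypothalamus controls, against 0.45 to 0.61 on the other 3. Prelp measured 2.07 on array 2 of the GLP cortex controls, against 1.5 to 1.55 on the other 3.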

How the results depend on the processing

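The 2 tissue mutant calls became 0 with quantile normalization or the replicate block, 1 with no filter, a stricter filter, robust fitting or the mean of probe sets, and 6 with array weights. They were 0 to 2 when each of 59 arrays was left out, and 3 with the floor or the pseudocount, which kept both and added Lum in GLP hippocampus. The compared groups alone gave 3 calls and kept neither Fmod nor Lum in G9a hippocampus: they were Lum and Prelp in GLP hippocampus and Ogn in GLP striatum. Under the replicate block, Fmod and Lum in G9a hippocampus measured 1.67 (adjusted p = 0.0654) and 0.98 (adjusted p = 0.0764). Correlations there ran from -0.139 to 0.313, too few to settle whether the numbers pair arrays, and the labels state no pairing. Tests across regions had 0 calls, against 2 with the floor, 2 with the pseudocount, 1 with array weights and 0 to 1 without an array. Calls of pools against striatum numbered 6, against 0 with the stricter filter, which tested fewer genes, 3 with the mean of probe sets, and 3 to 6 without an array, the lowest without G9a striatum control 2. Drd1 against Drd2 control pools gave 0, against 1 with no filter, the compared groups alone or the replicate block, and 0 without any one array. The 21 control region calls became 10 with G9a controls alone, an alternative chosen after seeing the data, and 21 to 22 without an array. Mutant pools, GLP minus G9a changes and the Drd1 minus Drd2 change had 0 calls in every setting run. In control hypothalamus Dcn (0.49) turned to -0.0136 with the mean of probe sets and Lum (0.64) to -0.00858 with the floor. The causes were not tested. Over all member values, 3495 alternatives kept direction and side of the threshold, 107 turned direction without a call in either setting, 29 lost the call, 51 gained it and 2 called values reversed. Signal under the array median limits Omd and Aspn in most groups, and Lum in striatum, cortex, the pools and G9a hypothalamus.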
